A study of Mus musculus with 10 samples.

Results

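The small Maf and NRF2 stress axis was followed in mouse embryonic stem cell (ESC) lines through 10 genes of the 20206 in the table: the small Maf genes Maff, Mafg and Mafk, the cap'n'collar (CNC) partner genes Nfe2l1 and Nfe2l2, the regulators Keap1 and Bach1, and the target genes Hmox1, Nqo1 and Gclm. The genes were chosen by symbol for their roles in the axis, with earlier results of these data known. Where a symbol had several entries, the entry with the highest mean over the lines was to be used. Each symbol had 1 entry, so no measured difference decided which entry was taken, but Maff is also a gene that the study selected for its difference on these same lines, and its values are therefore a description and not independent evidence. All 10 genes had a mean signal of at least 10 and were thus among the 14354 genes tested.

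Small Maf proteins are basic leucine zipper factors that bind DNA but carry no transactivation domain. They act as obligate partners of CNC factors such as NRF2 (the product of Nfe2l2), and the paired factors bind antioxidant response elements (ARE) in the promoters and enhancers of detoxification and redox genes. KEAP1 holds NRF2 in the cytoplasm and passes it to a ubiquitin ligase until oxidants or electrophiles modify KEAP1, and BACH1 pairs with the same small Maf proteins to repress ARE genes, heme oxygenase above all. Much of the control of NRF2 is on the protein, which RNA levels do not show.

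RNA was sequenced from 10 ESC lines of wild-type C57BL/6 embryos, 5 whose mothers had received low protein diet (LPD, 9% casein) and 5 whose mothers had received normal protein diet (NPD, 18% casein). The mothers were 7 to 9 weeks old at natural mating to C57BL/6 males, and received the diets, equal in calories, from the day after mating until embryonic day 3.5. The lines, labelled male and according to the study's methods each from a different mother, were derived on mitotically inactivated feeder fibroblasts, and RNA was taken after culture without fibroblasts. Each line is 1 replicate, named here by its diet and line number (LPD lines 1, 4, 6, 20 and 40, NPD lines 8, 15, 21, 36 and 51), and its values describe an established line several passages away from the diet.

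Expression is given as the authors' normalized signal, an estimated read count per gene scaled between lines. The value of 1 read, estimated from low values, gave the depth of each line as read equivalents. These numbered 20326060 to 23187225 in the NPD lines. In the LPD lines they were 21857323 in line 1 and 24245897 in line 20, but 12399553 in line 6, 11235799 in line 40 and 5805004 in line 4. LPD lines 4, 6 and 40 were thus the shallow lines, and depth was not balanced between the diets. The lowest value of any of the 10 genes in LPD line 4 stood for about 160 reads (Keap1), so all 10 were detected well in every line, with wider counting error in the shallow lines.

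Y-linked RNA was low for the male label in a pair of lines, and to different extents. Ddx3y, a helicase gene on the Y chromosome, had values of 1110 to 1493 in 8 lines, but 174 in LPD line 4 and 7.70 in NPD line 15. Eif2s3y and Uty, also Y-linked, were 140 and 44.8 in LPD line 4 and 7.72 and 15.6 in NPD line 15. They were 1409 to 1744 and 265 to 521 in the 8 lines. Kdm5d, a Y-linked demethylase gene, was less reduced, at 342 in LPD line 4 and 121 in NPD line 15, against 612 to 721 in the 8 lines. X-linked RNA (334 genes) was also raised in NPD line 15, by a median of 0.49 in log2 units relative to the 10-line median, and deviated by at most 0.06 in the other lines, LPD line 4 included. Results for the genes that differed most are given with and without these lines.

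Marker genes were set against the ESC label. The pluripotency genes Dppa5a (29273 ± 4330 in LPD and 28059 ± 5270 in NPD, SD, n = 5), Pou5f1 (23975 ± 4629 and 24108 ± 3126) and Nanog (7819 ± 1804 and 8652 ± 1964) were abundant in all lines, and of 10 such genes 4 were higher and 6 lower in LPD, with a median log2 fold change of -0.02. RNA of other cell types was present at lower and variable levels. Of 8 primitive endoderm genes, all 8 were higher in LPD on the log2 scale (median 0.44) and 0 had an unadjusted p under 0.05. Their summed signal was 11490, 6991, 1712, 5013 and 9444 in LPD lines 1, 4, 6, 20 and 40, and 2741, 967, 6628, 8728 and 6556 in NPD lines 8, 15, 21, 36 and 51, with Lama1, a laminin chain, the most abundant and Foxa2 listed at 0 in NPD line 15. These sums overlapped widely between the diets.

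Of 8 feeder fibroblast genes tested, 1 was higher and 7 lower in LPD (median -1.01), and again 0 had an unadjusted p under 0.05. The summed signal of the whole list was 14572, 13380, 18450, 17755 and 17108 in the LPD lines and 17413, 22123, 18824, 12657 and 17674 in the NPD lines, in the same order of line numbers. Most of it was Fn1 (fibronectin, 15118 ± 1945 in LPD and 15531 ± 2628 in NPD), which ESCs also express, while Postn, Lum, Dcn and S100a4 were listed at 0 in at least 1 line. Col1a1, the main fibroblast collagen gene, was highest in NPD line 15 (2709), a line with low Y-linked RNA, followed by LPD line 6 (1704) and NPD line 8 (1016). It was 178, 348, 138 and 131 in LPD lines 1, 4, 20 and 40, and 227 to 534 in NPD lines 21, 36 and 51. The same lines led the list, with a median log2 deviation from the 10-line median of 3.92, 2.08 and 1.51. Between the diets Col1a1 differed less (500 ± 679 in LPD and 948 ± 1035 in NPD) than between lines of 1 diet. Of 6 trophoblast genes tested, 4 were higher and 2 lower (median 0.07), with Eomes the most abundant at 333 ± 52.7 in LPD and 312 ± 70.6 in NPD. In bulk RNA, fewer cells of a type and less RNA per cell cannot be told apart, and the part of depth and of these cell types in the differences below was not tested beyond the values given beside them.

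Maff (ENSMUSG00000042622, chromosome 15, 79346621 to 79359076, plus strand, GRCm38) encodes the small Maf protein known for induction by stress and cytokines. Its signal was 599, 590, 708, 812 and 389 in LPD lines 1, 4, 6, 20 and 40, and 132, 166, 305, 185 and 281 in NPD lines 8, 15, 21, 36 and 51. The diets did not overlap, with LPD line 20 highest, LPD line 40 closest to the NPD lines and NPD line 8 lowest. The mean was 620 ± 157 in LPD and 214 ± 75.4 in NPD (SD, n = 5), a ratio of 2.90, and the log2 fold change of LPD against NPD was 1.56 (standard error 0.25, 95% interval 1.02 to 2.10). Maff ranked 2 by p among the 14354 genes tested, but its adjusted p was 0.227 (limma, Benjamini-Hochberg), and 0% of all genes tested were under 0.1. That adjusted p ran from 0.0165 to 0.998 over the alternatives.

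The size of the Maff difference depended little on single lines. Leaving out single lines gave log2 fold changes of 1.41 to 1.72. Its adjusted p depended on them more. Without LPD line 40, the LPD line closest to NPD, it was 0.0165 (limma), and 40 genes passed 0.1 there. With any other single line left out it was 0.209 to 0.755. Without LPD line 4 and NPD line 15, the lines with low Y-linked RNA, the log2 fold change was 1.50 (adjusted limma p 0.998). With depth as a covariate the log2 fold change was 1.70 (adjusted limma p 0.917). With the shallow LPD lines 4, 6 and 40 left out, an alternative chosen after seeing the data, it was 1.77 (adjusted limma p 0.263), on LPD lines 1 and 20 alone.

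Mafk (ENSMUSG00000018143, chromosome 5, 139791513 to 139802653, plus strand) encodes the small Maf protein first known as the partner of the erythroid factor NF-E2. Its signal was 712, 668, 415, 446 and 344 in LPD lines 1, 4, 6, 20 and 40, and 330, 388, 285, 332 and 316 in NPD lines 8, 15, 21, 36 and 51. LPD lines 1 and 4 stood well apart from the rest, LPD lines 6 and 20 lay just above the NPD range, and LPD line 40 fell inside it. The mean was 517 ± 163 in LPD and 330 ± 37.4 in NPD (SD, n = 5), and the lines of LPD differed among themselves more than those of NPD, with a coefficient of variation of 31.5% against 11.3%. The log2 fold change was 0.60 (standard error 0.19, 95% interval 0.18 to 1.01), with p = 0.0159 by the two-sided exact permutation test of mean log2 signal, whose smallest possible p is 0.00794. In limma the unadjusted p was 0.00850 and the adjusted p was 0.741, so Mafk did not pass over all genes tested (adjusted p 0.222 to 1.000 over the alternatives). Without LPD line 4 and NPD line 15 the log2 fold change was 0.55, and without the shallow lines it was 0.78.

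Mafg (ENSMUSG00000051510, chromosome 11, 120625117 to 120633600, minus strand) is the broadly expressed small Maf gene. Its signal ranged from 2219 to 2922 in the LPD lines and from 1976 to 2844 in the NPD lines. The ranges covered each other almost wholly, and the means of 2551 ± 344 and 2413 ± 348 (SD, n = 5) differed by less than the spread between lines. The log2 fold change was 0.08 (95% interval -0.18 to 0.34, exact permutation test, p = 0.532), and it changed sign, to -0.02, with depth as a covariate.

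Levels of different genes were compared per kilobase of annotated exon. The exons of all annotated transcripts of a gene were joined for this length, so such comparisons between genes are only rough. On this scale Mafg was the most abundant small Maf gene in both diets. It stood at 455 in LPD and 430 in NPD, against 239 and 82.4 for Maff and 133 and 84.6 for Mafk. Of the summed level of the small Maf genes per kilobase, Maff made up 28.5%, 24.9%, 30.3%, 36% and 23.7% in LPD lines 1, 4, 6, 20 and 40, and 7.90%, 11.4%, 21.7%, 11.3% and 17.9% in NPD lines 8, 15, 21, 36 and 51. The ranges of that share did not overlap, and the mean share was 28.7% ± 4.89 in LPD and 14.0% ± 5.60 in NPD (SD, n = 5). The share of Mafg was 55.3% ± 5.41 in LPD and 71.7% ± 5.49 in NPD, and that of Mafk 16.0% ± 4.46 and 14.2% ± 1.95. These shares rest on the same Maff values and carry no test of their own.

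**Figure D1:**
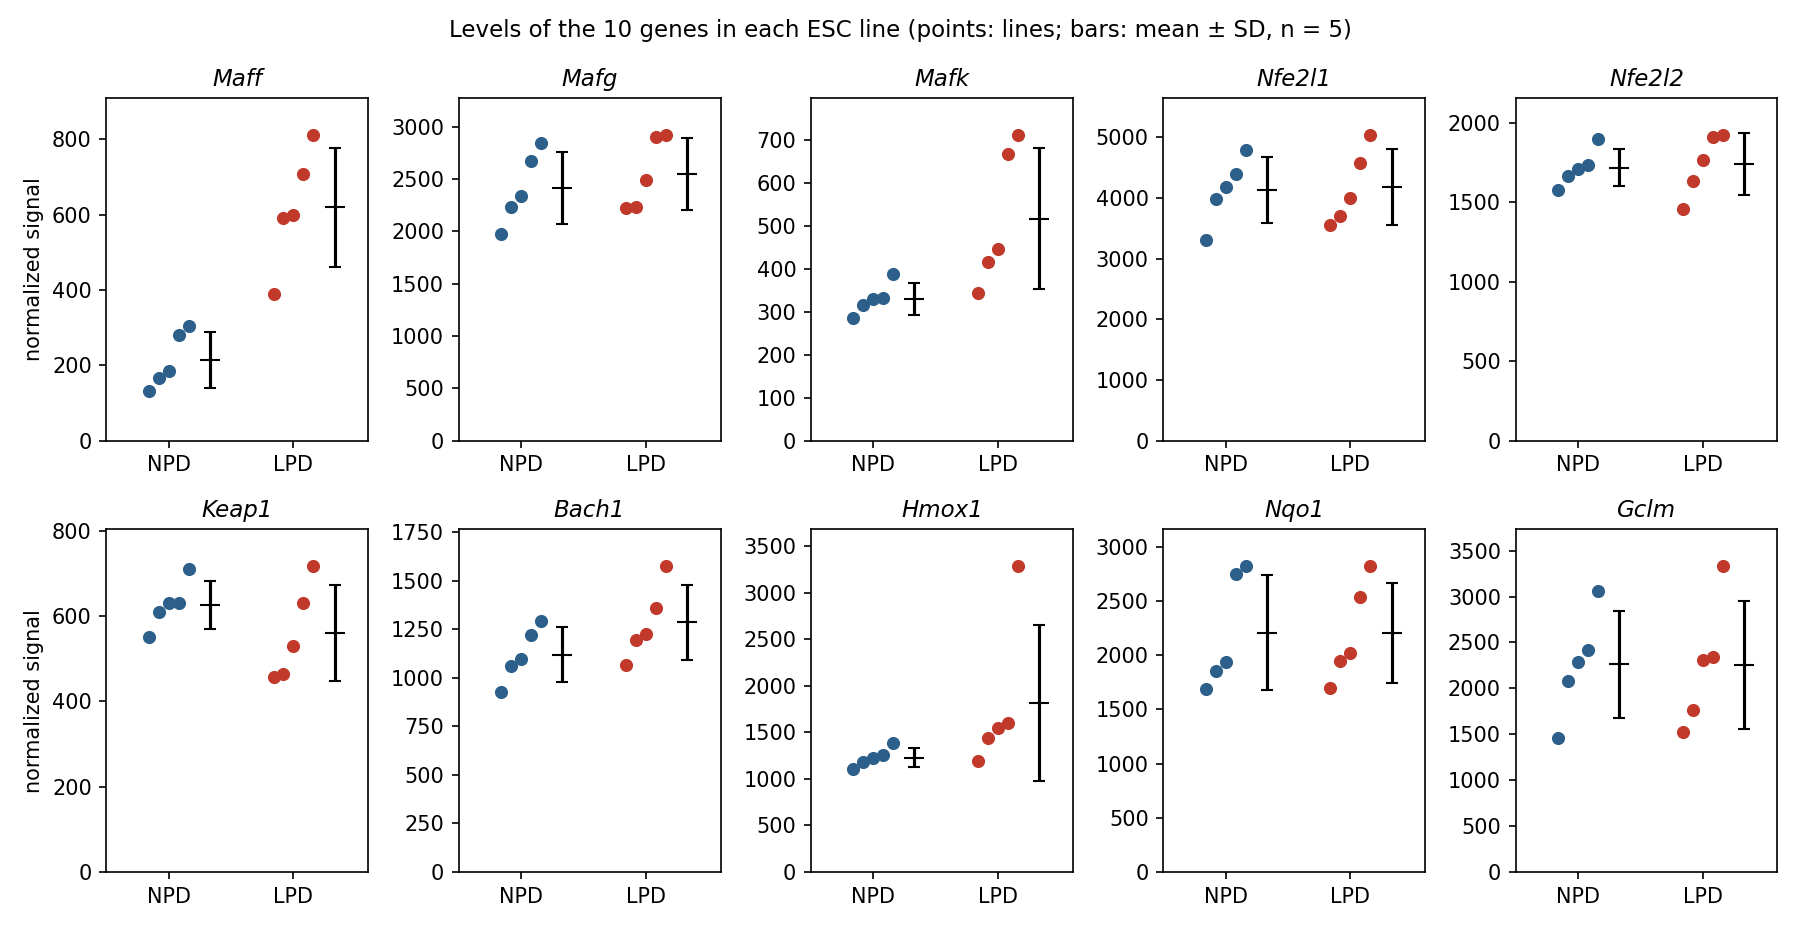
Normalized signal (vertical axes, from 0) of the 10 genes in each of the 5 NPD and 5 LPD lines, 1 point per line, with the mean ± SD of each diet as bars. The Maff points of LPD (389 to 812) all sit above those of NPD (132 to 305), Mafk and Hmox1 each have 4 LPD lines above the NPD lines, and the remaining genes overlap widely.

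Nfe2l2 (ENSMUSG00000015839, chromosome 2, 75675513 to 75704641, minus strand), which encodes NRF2, had signals of 1461, 1636, 1768, 1926 and 1910 in LPD lines 1, 4, 6, 20 and 40, and 1896, 1579, 1709, 1665 and 1735 in NPD lines 8, 15, 21, 36 and 51. Its lines lay close together, with LPD lines 20 and 40 and NPD line 8 at the upper end and LPD line 1 lowest. The highest line was 1.32 times the lowest, the smallest such ratio of the 10 genes. The means of 1740 ± 196 in LPD and 1717 ± 116 in NPD (SD, n = 5) did not differ beyond the spread (log2 fold change 0.01, 95% interval -0.19 to 0.22, exact permutation test, p = 0.873).

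Nfe2l1 (ENSMUSG00000038615, chromosome 11, 96817414 to 96829968, minus strand) encodes the CNC factor that is anchored in the endoplasmic reticulum and drives proteasome genes. Its signal was 3562 to 5045 in the LPD lines and 3314 to 4786 in the NPD lines. The log2 fold change was 0.01 (95% interval -0.24 to 0.27, exact permutation test, p = 0.921). For both CNC genes the intervals reach beyond 1 SD between lines (0.14 for Nfe2l2 and 0.20 for Nfe2l1 on the log2 scale), and the sign of either changed with the scaling (-0.03 for Nfe2l1 and -0.01 for Nfe2l2 with quantile normalization).

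Of the other members of the CNC and large Maf families, 7 in all, 4 passed the filter. Mafa was 181 ± 62.5 in LPD and 193 ± 36.5 in NPD, and Bach2, the repressor best known from B cells, was 123 ± 71.9 and 75.1 ± 45.3 (SD, n = 5). NPD line 8 held a Bach2 signal of 154, against 37.8 to 66.0 in the other NPD lines. Nfe2l3 (17.0 ± 5.65 and 14.6 ± 10.7) was near the filter. Nfe2, Maf and Nrl were under it, with means of 3.10, 9.45 and 3.61 in LPD and 3.62, 8.48 and 1.31 in NPD. Of the 4 tested, 2 were higher and 2 lower in LPD, with 0 at an unadjusted p under 0.05. Bach2 had a log2 fold change of 0.70, Nfe2l3 of 0.50 and Mafa of -0.14.

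Keap1 (ENSMUSG00000003308, chromosome 9, 21229730 to 21239361, minus strand) had signals of 457, 464, 717, 529 and 630 in LPD lines 1, 4, 6, 20 and 40, and 630, 551, 709, 631 and 608 in NPD lines 8, 15, 21, 36 and 51. LPD lines 1, 4 and 20 lay below every NPD line, and LPD line 6 lay above them all. The means were 559 ± 112 and 626 ± 56.8 (SD, n = 5), and the log2 difference was -0.18 (standard error 0.14, 95% interval -0.47 to 0.11, exact permutation test, p = 0.198). The unadjusted limma p of Keap1 was under 0.05 when LPD line 6 was left out and when the shallow lines were left out, and in no other setting.

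Bach1 (ENSMUSG00000025612, chromosome 16, 87698945 to 87733346, plus strand) had signals of 1194, 1361, 1577, 1227 and 1069 in the LPD lines and 1292, 1095, 1061, 1223 and 928 in the NPD lines, in the same order of line numbers. LPD lines 4 and 6 were above every NPD line and the remaining 3 fell within the NPD range. The means were 1286 ± 193 and 1120 ± 142 (SD, n = 5), and the log2 fold change of 0.20 (standard error 0.12, 95% interval -0.07 to 0.46) had p = 0.159 by the exact permutation test. The log2 fold change of Bach1 stayed between 0.12 and 0.26 over the alternatives.

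Hmox1 (ENSMUSG00000005413, chromosome 8, 75093621 to 75100589, plus strand) encodes the inducible heme oxygenase, the classic gene under joint control of NRF2 and BACH1. Its signal was 1192, 1437, 1548, 3288 and 1599 in LPD lines 1, 4, 6, 20 and 40, and 1252, 1109, 1185, 1220 and 1382 in NPD lines 8, 15, 21, 36 and 51. LPD line 20 stood far above all other lines, LPD lines 4, 6 and 40 lay a little above the NPD range, and LPD line 1 lay inside it. The NPD lines varied by a coefficient of 8.19%, the LPD lines by 46.3%. The mean was 1813 ± 839 in LPD and 1229 ± 101 in NPD (SD, n = 5), and the log2 fold change was 0.47 (standard error 0.21, 95% interval 0.00 to 0.93, exact permutation test, p = 0.0397). The limma p was 0.0486 before and 0.988 after adjustment (0.780 to 1.000 over the alternatives). Without LPD line 20 the log2 fold change was 0.23 and the unadjusted limma p 0.0541, and without LPD line 4 and NPD line 15 they were 0.49 and 0.0765, so the unadjusted call did not hold in either case. The same was true, with p up to 0.0894 in limma, when LPD line 6 or 40 or NPD line 8, 15, 21 or 36 was left out.

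Nqo1 (ENSMUSG00000003849, chromosome 8, 107388225 to 107403206, minus strand) encodes the quinone reductase most often read as a measure of NRF2 activity. Its signal was 1698, 1950, 2017, 2825 and 2534 in LPD lines 1, 4, 6, 20 and 40, and 2822, 1939, 1851, 1690 and 2751 in NPD lines 8, 15, 21, 36 and 51. Both diets held a high set (LPD lines 20 and 40, NPD lines 8 and 51) and a low set of lines, so that the spread was shared and the means were nearly equal, at 2205 ± 461 and 2210 ± 534 (SD, n = 5). The log2 fold change was 0.00 (95% interval -0.37 to 0.38, exact permutation test, p = 0.944).

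Gclm (ENSMUSG00000028124, chromosome 3, 122245557 to 122270732, plus strand) encodes the modifier subunit of glutamate-cysteine ligase, which catalyses the first step of glutathione synthesis. Its signal was 1521, 2310, 2346, 3333 and 1760 in the LPD lines and 3064, 2076, 1460, 2288 and 2417 in the NPD lines, in the same order of line numbers. LPD line 20 and NPD line 8 were highest, and LPD line 1 and NPD line 21 lowest, with no separation by diet. The means were 2254 ± 699 and 2261 ± 580 (SD, n = 5), with a log2 fold change of -0.02 (95% interval -0.49 to 0.45, exact permutation test, p = 0.968).

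**Figure D2:**
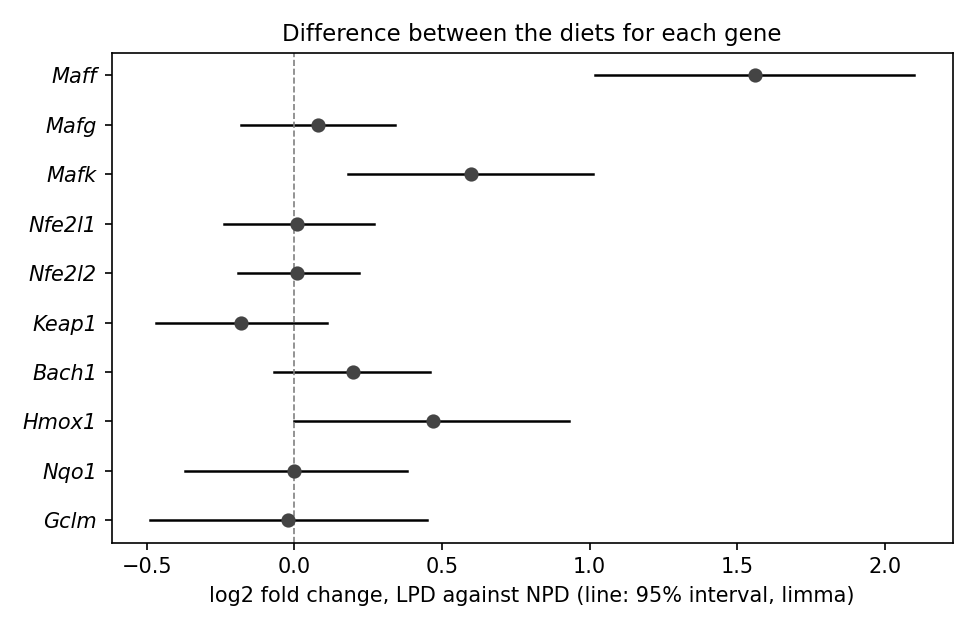
Log2 fold change of LPD against NPD (horizontal axis) for each of the 10 genes, with points for the estimate and lines for the 95% interval from limma. Maff (1.56) and Mafk (0.60) have intervals above 0, that of Hmox1 starts at 0.00, and those of the other genes span 0.

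By role, the small Maf genes Maff and Mafk had the largest log2 fold changes of the 10 genes in the main setting. The CNC partner genes Nfe2l1 and Nfe2l2 and the targets Nqo1 and Gclm had estimates close to 0. The regulators Bach1 (0.20) and Keap1 (-0.18) lay farther from 0, with intervals that span it. Differences between the genes were not tested. Hmox1 exceeded Mafk with depth as a covariate (0.66 against 0.57), without LPD line 1 (0.59 against 0.47) and without LPD line 4 (0.53 against 0.49). Of the 10 genes, 8 were higher and 2 lower in LPD, with a median log2 fold change of 0.05, against 50.5% higher and a median of 0.00 over all genes tested. This count depended on the scaling, since several of the differences were near 0. It was 5 higher and 5 lower with each line rescaled to the same total (42.2% of all genes higher) and with quantile normalization (46.7% higher), and between 6 and 9 higher with single lines left out. An unadjusted p under 0.05 was reached by 3 of the 10 (Maff, Mafk and Hmox1), where 5.02% of all genes tested reached it, 408 higher and 313 lower in LPD. For 1 of the 10, Maff, the LPD lines all lay above the NPD lines, as for 0.523% of all genes tested, and for 0 of the 10 they all lay below, as for 0.495%. Maff entered these counts as a gene already selected on the same lines, and 0 of the 10 passed adjustment. All 10 members were chosen with earlier results of these data known, so the counts describe the members and are not independent evidence about the axis. Per kilobase of exon and over all 10 lines, Nqo1 had the highest level (1421), followed by Hmox1 (869), Nfe2l1 (764), Nfe2l2 (455), Mafg (442) and Gclm (359), while Bach1 (195), Maff (161), Keap1 (126) and Mafk (109) were the lowest. The order was not the same in each diet. In NPD the mean level per kilobase of Hmox1 (702 ± 57.5) was below that of Nfe2l1 (760 ± 100), and Maff (82.4 ± 29.1) was the lowest, within the spread of Mafk (84.6 ± 9.59). In LPD Hmox1 (1035 ± 479) was above Nfe2l1 (768 ± 114) and Maff (239 ± 60.7) above Bach1 (208 ± 31.2), in both cases within the spread between lines (SD, n = 5), and Keap1 (119 ± 23.9) was the lowest.

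Across the lines, without regard to diet, 8 pairs of regulator and target or of targets were compared, each pair by itself. Of these, Nfe2l2 with Nqo1 had the highest correlation of log2 values over the 10 lines, with Pearson's r = 0.81 (permutation test, p = 0.00518, adjusted over the pairs 0.0414) and Spearman's rho = 0.81 (permutation p = 0.00710, adjusted 0.0416). Without LPD lines 1 and 20, the lines farthest from the median of Nfe2l2, r was 0.72, and for deviations from the diet means it was 0.81. The relation was positive with each line left out (r from 0.76 to 0.87), although the adjusted p was over 0.05 in most of these cases, and with each line rescaled to the same total, chosen for correlations after seeing the data, r was 0.73 (permutation p = 0.0129, adjusted 0.103).

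Nfe2l2 with Hmox1 (r = 0.60, permutation p = 0.0575, adjusted 0.139, rho = 0.76, permutation p = 0.0156, adjusted 0.0416) held by rank but not by value. LPD line 20 was highest in both genes, and without it and LPD line 1 r was 0.53. With each line rescaled to the same total it was 0.36 (permutation p = 0.287, adjusted 0.459). Nqo1 with Gclm was of the same kind (r = 0.64, permutation p = 0.0520, adjusted 0.139, rho = 0.77, permutation p = 0.0131, adjusted 0.0416), but without LPD line 20 and NPD line 8 its r was 0.29, so it rested on these lines, while without LPD line 40 it was 0.77 (permutation p = 0.0140, adjusted 0.0373). Nfe2l2 with Gclm (r = 0.57, permutation p = 0.0872, adjusted 0.139, rho = 0.56, permutation p = 0.0949, adjusted 0.152, and r = 0.16 without LPD lines 1 and 20) did not pass. LPD line 40 and NPD line 21 had the low Gclm values for their Nfe2l2 level, and without LPD line 40 r was 0.78 (permutation p = 0.0130, adjusted 0.0373). Gclm with Hmox1 did not pass either (r = 0.57, permutation p = 0.0834, adjusted 0.139, rho = 0.58, permutation p = 0.0878, adjusted 0.152, and r = 0.52 without LPD line 1 and NPD line 21). Its r rested on LPD line 20, at 0.18 without that line (permutation p = 0.627, adjusted 0.627), and was 0.72 without NPD line 8.

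The repressors and the small Maf partner gave no relation that passed. Keap1 with Nqo1 had r = 0.14 (permutation p = 0.697, adjusted 0.697, rho = -0.05, permutation p = 0.891, adjusted 0.891, and r = -0.41 without LPD lines 1 and 4). Bach1 with Hmox1 had r = 0.17 (permutation p = 0.601, adjusted 0.686, rho = 0.37, permutation p = 0.295, adjusted 0.393, and r = 0.18 without LPD line 6 and NPD line 51). For deviations from the diet means its r was -0.12, and with each line rescaled to the same total 0.04. Nfe2l2 with Mafg had r = 0.22 (permutation p = 0.547, adjusted 0.686, rho = 0.13, permutation p = 0.731, adjusted 0.836, and r = 0.08 without LPD lines 1 and 20).

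**Figure D3:**
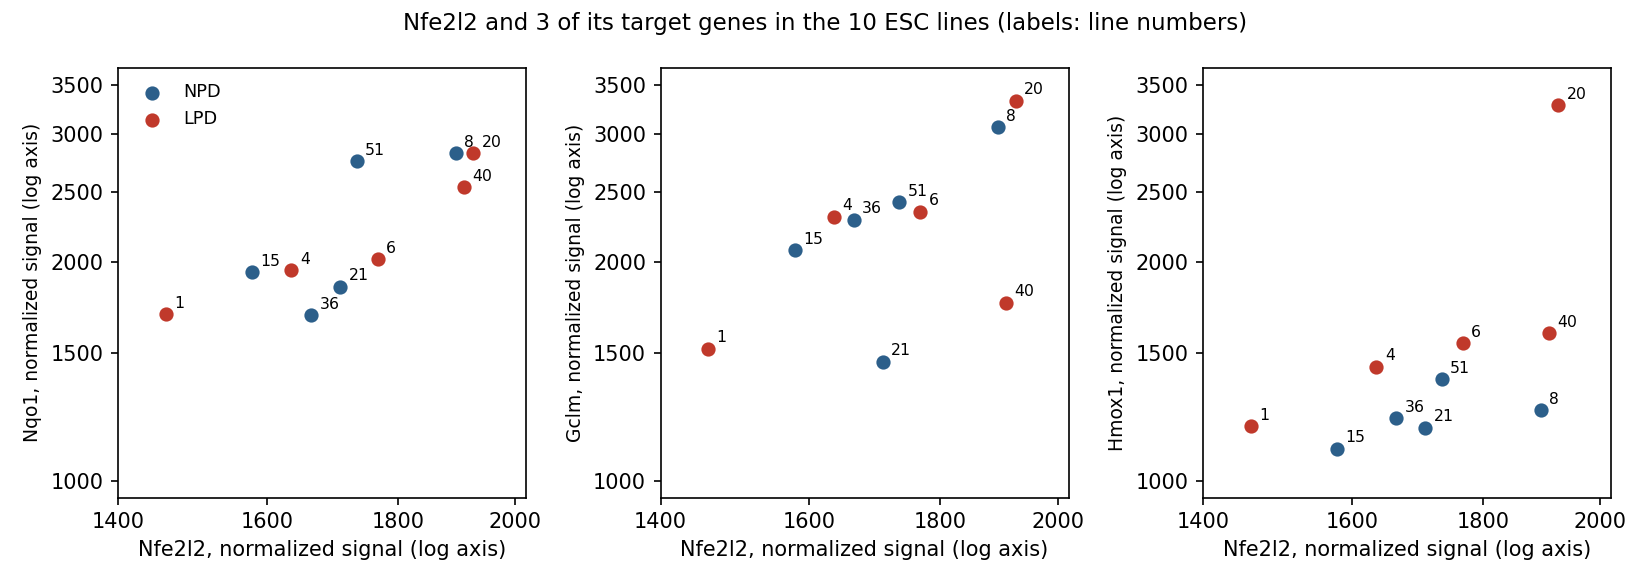
Normalized signal of Nfe2l2 (horizontal, log axis) against that of Nqo1, Gclm and Hmox1 (vertical, log axes) in the 10 lines, blue for NPD and red for LPD, with line numbers beside the points. Nqo1 is high in the lines with high Nfe2l2 (r = 0.81), Gclm is low for its Nfe2l2 in LPD line 40 and NPD line 21, and Hmox1 of LPD line 20 (3288) stands above all other lines.

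The wider NRF2 program was described with lists of glutathione, thioredoxin and NADPH genes, not all of which are mainly under NRF2. Leaving out Nqo1 and Gclm, which are counted above, 35 genes of glutathione, thioredoxin and quinone, and NADPH metabolism were tested, of which 26 were higher and 9 lower in LPD, with a median log2 fold change of 0.06 against 0.00 over all genes. Only Chac1, a gene better known from another stress response, had an unadjusted p under 0.05 among them, or 2.86% of the 35 where 5.02% of all genes did. The median deviation of these 35 genes from their 10-line medians was 0.17 in LPD line 20, on the log2 scale, and between -0.02 and 0.02 in the other LPD lines. In the NPD lines it was 0.06, 0.08, -0.09, -0.13 and -0.04 in lines 8, 15, 21, 36 and 51. LPD line 20, the line with the highest Hmox1, Gclm and Maff, was the highest over the 35 genes, but by list it led only in thioredoxin and quinone reduction (0.42). In the glutathione list (0.06) NPD lines 15 (0.14) and 8 (0.08) were higher, and in the NADPH list (0.26) LPD line 40 was (0.29). Without LPD line 20, 20 of the 35 genes were higher and 15 lower in LPD, with a median of 0.01.

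In the glutathione list, 12 of 17 genes tested were higher and 5 lower (median 0.06). Chac1, which encodes an enzyme that degrades glutathione and is best known as a target of the ATF4 stress response, had signals of 873, 923, 464, 521 and 311 in the LPD lines and 372, 192, 335, 263 and 218 in the NPD lines, in order of line number. LPD lines 1 and 4 were highest and LPD line 40 fell within the NPD range, as for Mafk. The means were 619 ± 267 and 276 ± 76.4 (SD, n = 5), and the exact permutation test gave p = 0.0238 for a log2 fold change of 1.09 (standard error 0.29). Its adjusted limma p, the smallest of the list, was 0.551. Gsta3 had the smallest limma p among the lower genes (log2 fold change -0.41, exact permutation p = 0.0952), and the most abundant gene of the list, Gsta4, was 6468 ± 752 in LPD and 6450 ± 587 in NPD.

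Thioredoxin and quinone reduction genes were higher in 11 and lower in 3 of 14 tested (median 0.05). Srxn1, which encodes sulfiredoxin, was 3455 ± 1108 in LPD and 2830 ± 643 in NPD (log2 fold change 0.25, exact permutation p = 0.365), Aox1 was lower at -0.70 on signals of 14.3 ± 7.42 and 24.1 ± 13.3 (exact permutation p = 0.167), and Txnrd1, thioredoxin reductase, was the most abundant at 18494 ± 4586 and 16897 ± 1902. Of the 6 genes that supply NADPH, 4 were higher and 2 lower (median 0.06), led by Idh1 (0.24, exact permutation p = 0.175) and with G6pdx lowest in limma p among the lower genes (-0.08, exact permutation p = 0.754). Tkt, transketolase, was the most abundant of these at 10956 ± 1732 and 10465 ± 1257. None of these differences exceeded the spread between lines.

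Around Hmox1, the heme and iron list had 10 genes higher and 4 lower of 14 (median 0.05), and Hmox1 was the only gene with an unadjusted p under 0.05. The ferritin light chain gene Ftl1 was by far the most abundant, at 101450 ± 15437 in LPD and 88988 ± 10946 in NPD (log2 fold change 0.19), and the transferrin receptor gene Tfrc was the lower gene with the smallest limma p (-0.18, exact permutation p = 0.476). In the summed signal of this list NPD line 36 was low, at 91309, against 114602 to 122182 in the other NPD lines. Most of that sum was Ftl1 (70505 in NPD line 36). By the median log2 deviation of the list NPD line 36 (-0.09) was not the lowest, since NPD line 21 was at -0.14. Among 16 other antioxidant enzymes, 12 were higher and 4 lower (median 0.04), with Cat, catalase, at 0.07 (exact permutation p = 0.484), Msra, a methionine sulfoxide reductase, at -0.36 (exact permutation p = 0.0873) and Gpx4, the lipid peroxide reductase, most abundant at 12473 ± 3257 and 12075 ± 2715.

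The machinery that turns NRF2 and NFE2L1 over also differed little. Of 16 such genes, 11 were higher and 5 lower (median 0.03), and 0 had an unadjusted p under 0.05. Sqstm1, whose product p62 binds KEAP1, was 5544 ± 1495 in LPD and 4494 ± 730 in NPD (log2 fold change 0.27, exact permutation p = 0.214), Palb2 was at -0.24 (exact permutation p = 0.222), and Vcp, the extraction ATPase that NFE2L1 needs to leave the endoplasmic reticulum, was the most abundant at 11007 ± 1030 and 10972 ± 921. The 31 proteasome subunit genes, which NFE2L1 controls, were higher in 19 and lower in 12 cases, and their log2 fold changes ran only from -0.07 to 0.17 with a median of 0.02. Psmd8 (0.17, exact permutation p = 0.214) and Psmd7 (-0.06, exact permutation p = 0.405) had the smallest limma p in each direction, and Psmc1 was the most abundant at 6952 ± 573 and 7276 ± 688. Over all the lists and without the 10 genes themselves, 79 of 115 genes were higher and 36 lower in LPD, with a median of 0.04, and 0.870% had an unadjusted p under 0.05 against 5.02% of all genes tested. That lean upwards depended on single lines and on the scaling. It was 54 higher and 61 lower (median -0.01) without LPD line 20, the same without LPD line 40, and 61 higher and 54 lower (median 0.00, against -0.03 over all genes) with each line rescaled to the same total.

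**Figure D4:**
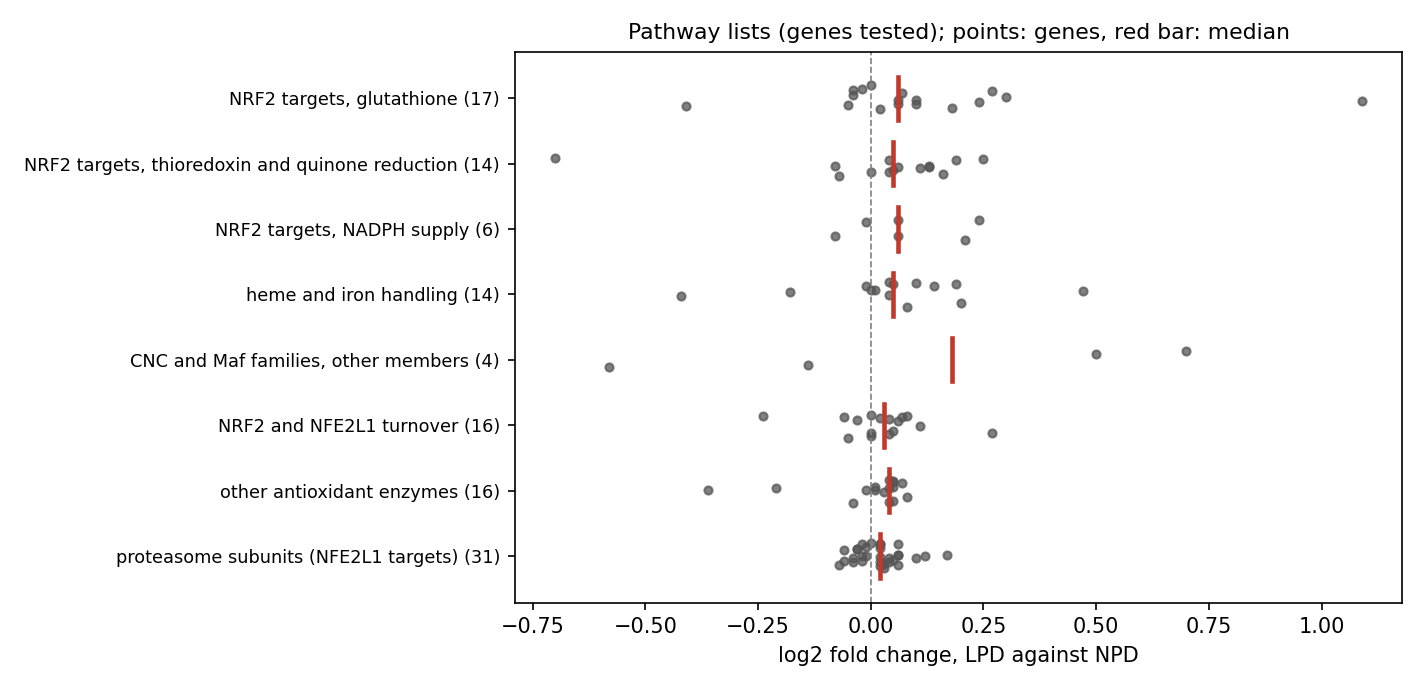
Log2 fold change of LPD against NPD (horizontal axis) for each gene tested in the 8 pathway lists (vertical axis, with the number tested), 1 point per gene, spread vertically only for legibility, and a red bar at the median of each list. Medians lie between 0.02 and 0.18, Chac1 (1.09) in the glutathione list is the point farthest from 0, and the proteasome genes lie between -0.07 and 0.17.

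The genes whose values followed Maff most closely over the 10 lines, among 10454 genes with a mean of at least 100, were Srf (r = 0.958), Klf5 (0.947), Jund (0.946) and Srsf7 (0.928), together with ENSMUSG00000110974, whose values are identical to those of Jund so that their reads cannot be assigned. Klf5 and Jund were, like Maff, selected by the study on these lines, and part of any such r is the difference between the diets that the genes share. For deviations from the diet means r was 0.87 for Srf, 0.86 for Klf5, 0.72 for Jund and 0.80 for Srsf7. Srf, the serum response factor gene, was 2121, 2314, 2107, 2347 and 1136 in LPD lines 1, 4, 6, 20 and 40, and 689, 933, 1118, 976 and 1276 in NPD lines 8, 15, 21, 36 and 51. LPD line 40 was the lowest LPD line and NPD line 8 the lowest of all for Srf, as for Maff, and LPD line 40 fell within the NPD range of Srf. Jund was 2941 ± 128 in LPD and 2149 ± 188 in NPD (SD, n = 5), with every LPD line above every NPD line.

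The genes most like the targets were others. They were Ywhag (r = 0.888) and the pair Cacng7 and ENSMUSG00000096998, which share identical values (0.877), for Nqo1, Kat5 (0.968), F2rl1 (0.962) and Arpc2 (0.957) for Hmox1, and Zfp532 (0.943), Dhx57 (0.942) and Tcf20 (0.935) for Gclm. All these r are descriptions over 10 lines that share libraries and depth. LPD line 20 was the highest line for Nqo1, Hmox1 and Gclm and for all the genes named with them (Kat5 860, F2rl1 5283, Arpc2 4758, Ywhag 21772, Cacng7 1255, Zfp532 3079 and Tcf20 4375) except Dhx57, which was highest in NPD line 8 (758). The part of LPD line 20 in these r was not tested.

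Promoter sequence was read from RefSeq (GRCm38.p6) for 9 of the 10 genes (all but Hmox1), as the 250 bases before each annotated start. The core of the ARE, TGACNNNGC on either strand, occurred in 5 of the 9 (Maff, Mafg, Mafk, Nfe2l2 and Gclm), and in 10.2% of all 32851 promoter windows of that length, or 11.5% of 27025 genes, and genes with several starts have more windows in which to match. The AP-1 site TGACTCA, which can overlap the ARE core, occurred in 0 of the 9 (4.46% of windows, 5.16% of genes). The cAMP response element TGACGTCA occurred in 1, Maff (1.55% of windows, 1.77% of genes). The CArG box, the binding motif of SRF, occurred in 0 (1.47% of windows, 1.62% of genes). The small Maf promoters are shown because these genes differ in how far apart the diets lay while each holds an ARE core. The capitals mark the matched letters, which are a description and not a shown binding site.

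The first Maff start (chr15:79346371-79346620, plus strand, 48.0% GC) has an ARE core whose first base lies 112 bases before the start, and the second (chr15:79347270-79347519, plus strand, 64.0% GC) has the cAMP response element 29 bases before it. The Mafk window (chr5:139791286-139791535, plus strand, 67.2% GC) has an ARE core 13 bases before the start, and the Mafg window (chr11:120633548-120633797, minus strand, 68.0% GC) has one 222 bases before it, both on the opposite strand to the gene. All are written 5' to 3' on the strand of the gene.
Maff, first start: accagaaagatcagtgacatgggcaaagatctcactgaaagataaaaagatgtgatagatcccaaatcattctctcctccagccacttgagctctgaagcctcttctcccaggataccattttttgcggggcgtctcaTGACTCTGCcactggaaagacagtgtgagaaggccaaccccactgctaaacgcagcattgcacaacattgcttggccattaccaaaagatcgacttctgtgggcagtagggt
Maff, second start: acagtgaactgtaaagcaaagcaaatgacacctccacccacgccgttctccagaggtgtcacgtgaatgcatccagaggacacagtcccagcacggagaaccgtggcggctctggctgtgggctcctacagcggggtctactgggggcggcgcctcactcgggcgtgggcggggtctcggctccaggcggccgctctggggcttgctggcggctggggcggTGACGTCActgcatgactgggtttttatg
Mafk: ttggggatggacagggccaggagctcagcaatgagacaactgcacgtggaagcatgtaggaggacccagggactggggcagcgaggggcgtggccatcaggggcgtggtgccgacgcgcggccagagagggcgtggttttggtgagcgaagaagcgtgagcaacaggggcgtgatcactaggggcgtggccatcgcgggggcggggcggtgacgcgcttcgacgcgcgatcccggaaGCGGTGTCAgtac
Mafg: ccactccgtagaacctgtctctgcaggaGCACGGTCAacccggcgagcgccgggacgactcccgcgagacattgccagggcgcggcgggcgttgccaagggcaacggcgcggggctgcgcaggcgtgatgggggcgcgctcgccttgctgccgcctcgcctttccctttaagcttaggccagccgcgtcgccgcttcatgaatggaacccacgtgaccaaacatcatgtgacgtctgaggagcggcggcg
An ARE core was thus present in the window of the first Maff start and in those of Mafk and Mafg. Whether these letters have a part in the levels of the genes was not tested. The third Maff window (chr15:79348152-79348401) had no motif match and is not shown.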

How the data were processed

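RNA sequencing of 10 mouse ESC lines was used, 5 LPD and 5 NPD, with 0 columns left unmapped. According to the study's methods, the authors trimmed adaptors with cutadapt, filtered reads by quality and quantified GRCm38 (Ensembl release 88) transcripts with Salmon. The authors deposited 1 normalized signal for each gene and line, which by its name is an estimate scaled with DESeq2, and how transcripts were summed to genes is not given in the sources used here. The study's own transcript test (sleuth 0.30.0) needs values not used here.

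Of 20206 genes, 19918 were matched to GENCODE M21. In the 4295 genes with 1 annotated transcript, 87.7% to 99.7% of low values were whole multiples (tolerance 0.15) of the value of 1 read, but over all genes only 63.2% to 68.7% were, so whole reads were not recovered and no count model was used. Dividing the total signal of a line by this value gave its read equivalents.

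Genes with a mean of at least 10 were compared in limma 3.58.1 (R 4.3.3, with lmFit and trended eBayes) on log2(value + 1), with Benjamini-Hochberg adjustment at 0.1. This scale understates changes of low genes. Single genes were also tested by two-sided exact permutation of mean log2 values, and correlations by 100000 permutations (Python 3.11.15, scipy 1.17.1). The test was tried on simulated data. Genes named were the 10 members, in each pathway list the most abundant gene and those with the lowest limma p upwards and downwards, the other CNC and Maf genes, the most abundant markers, and the genes most like Maff, Nqo1, Hmox1 and Gclm. Pou5f1, Nanog and Col1a1 were named after their values were seen, and 1 gene that the rule covers is not reported here. The members and lists were chosen with earlier results of these data known.

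Other settings tried were array weights, robust or untrended eBayes, depth as a covariate, quantile normalization, equal totals, exact Mann-Whitney tests, a filter at 100 or none, pseudocounts of 0.1, 0.5 and 10, single lines left out, and LPD line 4 with NPD line 15 left out. Leaving out LPD lines 4, 6 and 40 together, and correlations after rescaling to the same total, were chosen after seeing the data.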

Additional observations from a re-analysis of the deposited data

Results flagged for a closer look

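Among 172 sets of 5 lines of 1 diet whose genes or lists are named, 26 held a line far from the other 4 (by Dixon's ratio of the gap to the range), where chance gives about 1 in 20, and many of these sets share lines and cell types. Hmox1 was 3288 in LPD line 20, against 1192 to 1599 in the other LPD lines, Kat5 860, against 647 to 707, and F2rl1 5283, against 2849 to 3362, and the median deviation of the NRF2 target lists in that line was 0.17, against -0.02 to 0.02. Srf was 1136 in LPD line 40, against 2107 to 2347. The share of Mafk in the small Maf level was 17.7% in NPD line 15, against 13.2% to 13.4%. Bach2 was 154 in NPD line 8, against 37.8 to 66.0, and Foxa2 137 in LPD line 1, against 31.1 to 56.2. The summed signal of the heme and iron list, most of it Ftl1, was 91309 in NPD line 36, against 114602 to 122182.

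Feeder fibroblast genes were high in LPD line 6, with a median deviation of 2.08, against -0.69 to -0.01 in the other LPD lines. There Col1a1 was 1704, against 131 to 348, S100a4 102, against 0 to 5.98, Postn 25.6, against 0 to 0.749, Dcn 15.7, against 0 to 3.26, and Lum 1.39, against 0. In NPD line 15 S100a4 was 193, against 1.44 to 15.7 in the other NPD lines, Lum 111, against 0 to 0.721, and Dcn 33.5, against 0 to 3.88.

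Y-linked RNA was low in LPD line 4, where Ddx3y was 174, against 1161 to 1493, Eif2s3y 140, against 1519 to 1744, and Kdm5d 342, against 633 to 696. It was lower in NPD line 15, where Ddx3y was 7.70, against 1110 to 1364, Eif2s3y 7.72, against 1409 to 1682, Kdm5d 121, against 612 to 721, and Uty 15.6, against 343 to 422, and where the X-linked median deviation was 0.49, against -0.06 to -0.02. The causes of these deviations were not tested.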

How the results depend on the processing

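Maff, Mafk, Keap1, Bach1 and Hmox1 kept their direction in all alternatives run, with log2 fold changes of 1.41 to 1.77, 0.43 to 0.78, -0.34 to -0.11, 0.12 to 0.26 and 0.23 to 0.69. The unadjusted limma p of Maff and Mafk was under 0.05 in all of them, while that of Hmox1 was not without a trend, with robust eBayes, with array weights or with several single lines left out. Signs changed only for genes with differences near 0. Nfe2l1 was at -0.02 with the same total, -0.03 with quantile normalization, -0.06 with depth as a covariate, -0.09 without LPD lines 4, 6 and 40 and -0.06 as a difference of medians beside the exact Mann-Whitney test. Nfe2l2 was at -0.02, -0.01, -0.02 and -0.03 with the same total, quantile normalization, array weights and without the shallow lines, and Nqo1 at -0.03, -0.03 and -0.06 with the first 3 of these. Mafg was at -0.02 with depth as a covariate and without the shallow lines, and Gclm at 0.03 without the shallow lines and 0.01 as a difference of medians. With single lines left out the ranges were -0.06 to 0.07 (Nfe2l1), -0.02 to 0.08 (Nfe2l2), -0.09 to 0.10 (Nqo1), -0.17 to 0.11 (Gclm) and, for the correlation of Keap1 with Nqo1, -0.11 to 0.28.

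Genes with an adjusted p under 0.1 (limma, 0 with all lines, 721 at an unadjusted p under 0.05) numbered 1 with array weights, 6 without LPD lines 4, 6 and 40, and 0 to 40 with single lines left out, 40 without LPD line 40. Members whose groups did not overlap numbered 2 without LPD line 4 and NPD line 15 (Maff and Mafk), 3 without the shallow lines (Maff, Mafk and Keap1), and 1 to 2 with single lines left out. Groups of fewer lines separate more easily, and the shares over all genes tested were given for all lines only. These counts are therefore not a result about the members. Pathway genes with an unadjusted p under 0.05, 2 with all lines, numbered 4 without the shallow lines and 1 to 5 with single lines left out (5 without LPD line 40). The share of all genes tested under 0.05 was given for all lines only, and calls over all genes also rose without LPD line 40. These counts are therefore not a result about the lists. Correlation pairs with an adjusted p under 0.05 by Pearson's r, 1 with all lines (3 by Spearman's rho), numbered 0 without LPD line 4 and NPD line 15, 0 with the same total, and 0 to 3 with single lines left out, 3 without LPD line 40. With single lines left out the list medians ranged from 0.00 to 0.13 (glutathione), -0.01 to 0.11 (thioredoxin and quinone), 0.00 to 0.11 (NADPH), 0.03 to 0.09 (heme and iron), -0.00 to 0.28 (CNC and Maf), -0.03 to 0.06 (turnover and proteasome) and -0.04 to 0.06 (other antioxidants), lowest without LPD line 20 or 40 or NPD line 21 or 36, and with the same total were -0.01 (turnover) and -0.02 (proteasome). The causes were not tested. No paired analysis was possible because the diets share no line numbers.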
